A study of Mus musculus with 12 samples.

Results

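The matricellular genes of mouse scar were described in 12 RNA-seq libraries. They are 8 genes chosen by symbol, *Postn*, *Tnc*, *Tnn*, *Sparc*, *Thbs1*, *Thbs2*, *Thbs4* and *Tgfbi*, of 35976 genes listed, and all 8 were among the 18853 genes with enough counts to be tested. Scars were taken from male mice of 8 to 12 weeks on a C57BL/6J background, with 3 scars in each of 4 groups. A split wound was made on the back, and a plastic device was placed on it after 6 days. Traction was applied by lengthening the device 1 mm per day to 8 mm in all, whereas sham mice wore it at a fixed length. Each treatment was given to Tem1WT/WT mice and to Tem1lacZ/lacZ mice, which lack *Tem1* (*Cd248*) in every cell type because its single exon was replaced by the *lacZ* reporter. The comparisons address which of these matrix genes changed with traction, and whether the change differed in mice without *Tem1*.

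Matricellular proteins are secreted into the extracellular matrix, where they bind collagens, growth factors and cell surface receptors more than they build fibres. Most are scarce in resting adult skin and are produced by fibroblasts and other cells during wound repair, when they alter cell adhesion, migration and the assembly of collagen. The tenascins (*Tnc*, *Tnn*) are large glycoproteins of provisional and mechanically loaded matrix. The thrombospondins (*Thbs1*, *Thbs2*, *Thbs4*) bind calcium, receptors and matrix proteins, periostin (*Postn*) and its relative *Tgfbi* bind collagen and integrins, and *Sparc* binds collagen.

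*Cd248* was counted 3883 to 16413 times in each Tem1WT/WT library and 0 to 13 times in each Tem1lacZ/lacZ library. Library totals ranged from 41536788 to 64644293 counts. Together the 8 genes took 1.74% to 2.85% of the counts of a library in the Tem1WT/WT traction group and 0.778% to 2.00% in the other groups. All 12 fibroblast markers examined were detected in every group, as were markers of keratinocytes, hair follicles, endothelium and macrophages, so each library was a mixture of skin cells. In such bulk tissue, fewer cells of a type and less RNA per cell cannot be told apart. Replicate 1 of the Tem1WT/WT traction group stood apart from the other libraries. Its summed level of 12 neutrophil markers was 8496 CPM (counts relative to the TMM-adjusted total of the library), beside 913 and 528 in the other Tem1WT/WT traction libraries, 339 to 605 with traction and 239 to 246 in sham of Tem1lacZ/lacZ mice, and 139 to 162 in Tem1WT/WT sham, where *Ly6g* had 0 counts. The values of the 8 genes for traction in Tem1WT/WT mice are also given without it. Replicate 1 of the Tem1WT/WT sham group had 14771 CPM of 10 skeletal muscle markers, beside 3900 and 1444 in its group. The other groups had 364 to 3773 CPM of these markers. This sham library was the lowest of its group for 6 of the 8 genes.

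In GRCm38 *Tnc* lies on chromosome 4 (63959785 to 64047015, minus strand), *Tnn* on chromosome 1 (160085029 to 160153692, minus), *Thbs1* on chromosome 2 (118111876 to 118127133, plus) and *Thbs2* on chromosome 17 (14665500 to 14694262, minus). *Thbs4* (92751586 to 92794818, minus) and *Tgfbi* (56609586 to 56639359, plus) share chromosome 13, *Postn* lies on chromosome 3 (54359267 to 54391041, plus) and *Sparc* on chromosome 11 (55394159 to 55420080, minus). Their RefSeq promoters (GRCm38.p6) were read as the sequence stretching 250 bases upstream of each listed start. The windows of *Tnc*, *Tnn*, *Thbs2* and *Postn* are shown because these genes span the largest and the smallest responses to traction. They are written 5′ to 3′ on the strand of the gene and carry capitals at matches of the motifs searched on both strands, which were the TATA box (TATAAA), a TEAD motif (GGAATG), a Smad motif (CAGAC), an AP-1 motif (TGANTCA) and a Runx motif (TGTGGT).
Tnc (chr4:64047016-64047265, minus strand): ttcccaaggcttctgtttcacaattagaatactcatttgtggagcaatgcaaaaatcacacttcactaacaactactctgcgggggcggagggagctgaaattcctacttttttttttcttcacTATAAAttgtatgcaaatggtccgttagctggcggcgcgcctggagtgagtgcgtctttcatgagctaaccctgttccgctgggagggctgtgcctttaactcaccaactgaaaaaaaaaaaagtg
Tnn (chr1:160153576-160153825, minus strand): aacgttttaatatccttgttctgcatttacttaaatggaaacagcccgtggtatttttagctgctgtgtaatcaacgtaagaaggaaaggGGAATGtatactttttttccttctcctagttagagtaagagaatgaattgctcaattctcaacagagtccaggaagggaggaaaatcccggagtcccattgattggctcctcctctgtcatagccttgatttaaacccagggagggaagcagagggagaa
Thbs2 (chr17:14694263-14694512, minus strand): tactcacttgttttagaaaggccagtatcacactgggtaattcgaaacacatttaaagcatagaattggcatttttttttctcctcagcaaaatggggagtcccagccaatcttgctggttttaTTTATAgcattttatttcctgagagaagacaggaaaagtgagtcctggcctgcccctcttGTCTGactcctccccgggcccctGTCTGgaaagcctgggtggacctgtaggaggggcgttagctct
Postn (chr3:54360857-54361106, plus strand): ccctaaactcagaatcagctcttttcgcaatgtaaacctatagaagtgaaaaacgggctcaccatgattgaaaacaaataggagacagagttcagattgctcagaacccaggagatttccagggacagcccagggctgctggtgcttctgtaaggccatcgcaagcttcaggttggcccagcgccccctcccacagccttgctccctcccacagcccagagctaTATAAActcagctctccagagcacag

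For *Tnc* and *Postn*, each with 2 listed starts, the outermost start of *Tnc* and the inner start of *Postn* are shown. The TATA box letters ended 21 bases before the start in *Postn* and 121 bases before it in *Tnc*. In *Thbs2* they stood on the opposite strand, as TTTATA, 126 to 121 bases before the start. *Tnn* held a TEAD motif 160 to 155 bases before its start and no TATA box letters. Matches of the Smad motif on the opposite strand, read as GTCTG, numbered 2 in *Thbs2*, 2 in *Thbs4*, 2 in *Tgfbi* and 1 in *Sparc*. The other listed starts of *Tnc* and *Postn* held 1 Smad match each. *Thbs4* also held 2 TEAD matches that overlap each other. Among 32851 RefSeq promoters of this length, 12.4% held the TATA box letters, 12.6% the TEAD, 42.2% the Smad, 6.75% the AP-1 and 14.0% the Runx motif. No AP-1 or Runx match was found in the windows read, which covered 7 of the 8 genes, and this says only that these letters are not in these windows. *Thbs1* had no entry.

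With traction, 4 of the 8 genes rose in Tem1WT/WT scars and none fell. The increases were 13.4-fold for *Tnc*, 12.04-fold for *Tnn*, 7.60-fold for *Thbs1* and 3.00-fold for *Tgfbi* (edgeR quasi-likelihood test, Benjamini-Hochberg adjusted p under 0.05). Of all genes tested, 9.15% passed the same test and 5.61% passed it as higher. For these 4 genes the traction and sham libraries did not overlap, which held, with traction higher, for 17.7% of all genes. The median log2 fold change was 1.50 over the 8 genes and -0.01 over all genes. In Tem1lacZ/lacZ scars none of the 8 genes passed the test for traction, as did none of the 18853 genes (0%).

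**Figure D1:**
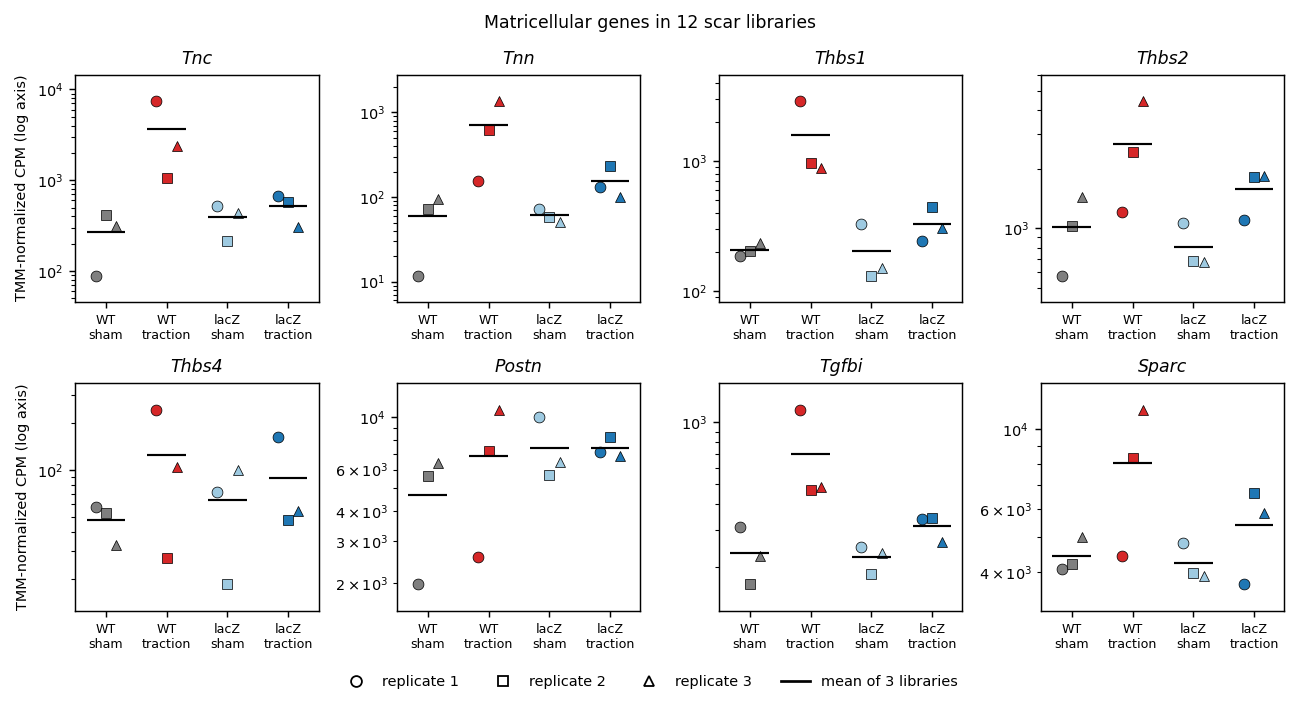
TMM-normalized CPM (log axis) of each gene in the 4 groups, with a point for each of 3 libraries and a line at the group mean; scales differ between panels. All 3 Tem1WT/WT traction libraries lie above all 3 Tem1WT/WT sham libraries for *Tnc*, *Tnn*, *Thbs1* and *Tgfbi*, and *Postn* overlaps in every comparison.

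Tenascin-C (*Tnc*), a glycoprotein of wound margins that loosens cell adhesion, had 88.9, 417 and 309.8 CPM in the Tem1WT/WT sham libraries and 7503, 1049 and 2411 CPM in the Tem1WT/WT traction libraries, in the order of the replicate numbers. The levels in Tem1lacZ/lacZ mice were 521, 216 and 439 CPM in sham and 673, 571 and 308 CPM with traction. The 3 Tem1WT/WT traction libraries were thus the highest of the 12, whereas the other 3 groups overlapped. The log2 fold change with traction in Tem1WT/WT mice was 3.75 (SE 0.78, adjusted p = 0.0310), with a 95% interval of 2.02 to 5.47. Without the traction library rich in neutrophil markers it was 2.64 (adjusted p = 0.0519), or 6.25-fold. In Tem1lacZ/lacZ mice it was 0.40 (SE 0.70, adjusted p = 0.889). An antisense gene, 8030451A03Rik, shares 176 exon bases with *Tnc* and had 0 to 16 counts per library; the strand setting of the counting is not given in the sources used here.

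*Tnn*, which encodes tenascin-W, a tenascin known from stem cell niches and stroma, had the lowest level per length of the set in sham scars. Its levels were 11.8, 71.8 and 94.9 CPM in Tem1WT/WT sham and 155, 619 and 1375 CPM in Tem1WT/WT traction libraries. In Tem1lacZ/lacZ mice the levels were 73.0, 58.2 and 51.3 CPM in sham and 133, 232 and 99.6 CPM with traction. Traction and sham libraries did not overlap in either genotype. The log2 fold change was 3.59 (SE 0.84, adjusted p = 0.0346) in Tem1WT/WT mice and 1.35 (SE 0.77, adjusted p = 0.651) in Tem1lacZ/lacZ mice. Here replicate 1 was the lowest of the traction libraries, and without it the Tem1WT/WT value was 4.04 (adjusted p = 0.0395).

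Thrombospondin-1 (*Thbs1*), a ligand of Cd36 and Cd47 and an activator of latent TGF-β, had 189, 204 and 234 CPM in Tem1WT/WT sham and 2905, 973 and 891 CPM in Tem1WT/WT traction libraries. In Tem1lacZ/lacZ mice it had 331, 132 and 152 CPM in sham and 245, 442 and 306 CPM with traction, and these groups overlapped. The Tem1WT/WT sham libraries were the closest to each other of any group (209 ± 23.1 CPM, SD, n = 3), and all Tem1WT/WT traction libraries were above the highest library of every other group. The log2 fold change with traction was 2.93 (SE 0.51, adjusted p = 0.0252) in Tem1WT/WT mice and 0.69 (SE 0.48, adjusted p = 0.692) in Tem1lacZ/lacZ mice. Without replicate 1 of the Tem1WT/WT traction group the first was 2.14 (adjusted p = 0.0385), or 4.40-fold. *Thbs1* is also stored in platelets. The summed level of 8 platelet and megakaryocyte markers was 45.4, 105 and 62.9 CPM in Tem1WT/WT traction libraries, in the order of the replicate numbers. It was 32.2 to 43.5 CPM in Tem1WT/WT sham libraries. In Tem1lacZ/lacZ mice it was 39.3 to 65.9 CPM in sham and 47.5 to 56.4 CPM with traction. The part of platelets in the result was not tested. The exons of *Thbs1* share 208 bases with the antisense gene Gm29233, which was not among the genes listed.

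*Thbs2*, a close relative that restrains blood vessel growth and whose loss disturbs collagen fibrils, had 577, 1034 and 1436 CPM in Tem1WT/WT sham and 1214, 2430.2 and 4438 CPM in Tem1WT/WT traction libraries. In Tem1lacZ/lacZ mice it had 1064, 682 and 674 CPM in sham and 1098, 1828 and 1847 CPM with traction. The groups overlapped in Tem1WT/WT mice and were narrowly separate in Tem1lacZ/lacZ mice. The log2 fold changes were 1.41 (SE 0.47, adjusted p = 0.0738) and 0.98 (SE 0.46, adjusted p = 0.622). Neither passed the test, and their 95% intervals were 0.38 to 2.43 and -0.04 to 2.00. Without replicate 1 of the traction group the Tem1WT/WT value was 1.73 (adjusted p = 0.0523).

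*Thbs4*, a thrombospondin of tendon and muscle matrix, was low and spread widely. Its levels were 57.3, 52.9 and 33.1 CPM in Tem1WT/WT sham, 243, 27.4 and 104 CPM in Tem1WT/WT traction, 72.3, 18.4 and 100.3 CPM in Tem1lacZ/lacZ sham, and 162, 47.7 and 54.5 CPM in Tem1lacZ/lacZ traction libraries. All 4 groups overlapped. The log2 fold change with traction was 1.39 (SE 0.78, adjusted p = 0.245) in Tem1WT/WT mice, 0.43 (adjusted p = 0.735) without replicate 1 of the traction group, and 0.47 (SE 0.76, adjusted p = 0.879) in Tem1lacZ/lacZ mice. The summed level of 10 tendon and cartilage markers was 82.1, 198 and 161 CPM in Tem1WT/WT traction libraries. It was 152 to 179 CPM in Tem1WT/WT sham libraries. That of 10 skeletal muscle markers was 14771, 3900 and 1444 CPM in Tem1WT/WT sham and 2234, 364 and 418 CPM in Tem1WT/WT traction libraries. In Tem1lacZ/lacZ mice it was 2808, 1314 and 3773 CPM in sham and 2833, 1805 and 1652 CPM with traction. In each group the library with the most *Thbs4* also had the most of these muscle markers. The part of muscle in the result was not tested.

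Periostin (*Postn*), which promotes collagen crosslinking and is a known product of fibroblasts in scar and fibrotic tissue, was the second of the set in level per length. It had 1972, 5632 and 6399 CPM in Tem1WT/WT sham, 2583, 7157 and 10742 CPM in Tem1WT/WT traction, 10035, 5712 and 6479 CPM in Tem1lacZ/lacZ sham, and 7088, 8264 and 6854 CPM in Tem1lacZ/lacZ traction libraries. Replicate 1 was the lowest library in both Tem1WT/WT groups, and the groups overlapped in every comparison. The log2 fold change with traction was 0.55 (SE 0.51, adjusted p = 0.494) in Tem1WT/WT mice and -0.00 (SE 0.51, adjusted p = 1.00) in Tem1lacZ/lacZ mice, with 95% intervals of -0.58 to 1.68 and -1.13 to 1.13. Without replicate 1 of the traction group the Tem1WT/WT value was 0.92 (adjusted p = 0.213).

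*Tgfbi*, a TGF-β-induced relative of periostin that links collagen to integrins, had 312, 164 and 225 CPM in Tem1WT/WT sham and 1149.8, 472 and 485 CPM in Tem1WT/WT traction libraries. Its levels in Tem1lacZ/lacZ mice were 249.6, 184 and 233 CPM in sham and 339, 343 and 265 CPM with traction, so that sham and traction libraries did not overlap in either genotype. The log2 fold change was 1.59 (SE 0.35, adjusted p = 0.0329) in Tem1WT/WT mice, 1.01 (adjusted p = 0.0551) without replicate 1 of the traction group, and 0.51 (SE 0.35, adjusted p = 0.690) in Tem1lacZ/lacZ mice.

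*Sparc*, a collagen-binding protein of connective tissue, had 4092, 4231 and 5008 CPM in Tem1WT/WT sham and 4433, 8311 and 11337 CPM in Tem1WT/WT traction libraries. In Tem1lacZ/lacZ mice it had 4822, 3977 and 3920.0 CPM in sham and 3704, 6627 and 5864 CPM with traction. Replicate 1 of either traction group lay within the range of the sham libraries or below it, and the other traction libraries lay above. The log2 fold changes were 0.85 (SE 0.34, adjusted p = 0.111) in Tem1WT/WT mice, 1.12 (adjusted p = 0.0567) in them without replicate 1 of the traction group, and 0.35 (SE 0.33, adjusted p = 0.783) in Tem1lacZ/lacZ mice.

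The number of genes that passed in Tem1WT/WT mice depended on the libraries and the test. Of the 8 genes, 0 passed without replicate 1 or replicate 2 of the Tem1WT/WT sham group, when 0 of all genes passed as well. Only *Thbs1* passed without replicate 3 of the Tem1WT/WT sham group (4.22% of all genes) or replicate 3 of the Tem1lacZ/lacZ sham group (0.873%). Without replicate 1 of the Tem1WT/WT traction group 2 passed, *Tnn* and *Thbs1* (1.86% of all genes), and without its replicate 3 there were 3 (3.62%), where *Tnn* had a log2 fold change of 2.70 (adjusted p = 0.0753). DESeq2, with which 21.6% of all genes passed, called 6 of the 8, adding *Sparc* (adjusted p = 0.0421) and *Thbs2* (adjusted p = 0.0165). Limma-voom called 3 of them (3.97% of all genes) and gave *Tnc* a log2 fold change of 2.81 (adjusted p = 0.0547). The sign was positive for all 8 genes in each of these fits.

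In Tem1lacZ/lacZ mice none of the 8 genes passed with edgeR, with DESeq2 (0.19% of all genes) or with limma-voom (2.31% of all genes). None had an unadjusted p under 0.05 in the edgeR fit of all 12 libraries, beside 8.12% of all genes. Without replicate 1 of the Tem1WT/WT traction group, which enters the shared estimate of the spread, *Tnn* (unadjusted p = 0.0484), *Thbs2* (0.0220) and *Tgfbi* (0.0402) were under it in the edgeR test, as were 2109 of 19388 genes, and none of the 8 passed. With edgeR on the Tem1lacZ/lacZ libraries alone, 3 of the 8 had an unadjusted p under 0.05, as did 1623 of 17836 genes. With limma-voom 3 of the 8 did, as did 5312 of 18853 genes, and with DESeq2 1 did, as did 1847 genes. The smallest adjusted p of the 8 with limma-voom was 0.0561, for *Thbs2*. In the edgeR fit of all libraries the median log2 fold change was 0.49 over the 8 genes and -0.01 over all genes. *Tnn*, *Thbs2* and *Tgfbi* were higher in every traction library than in every sham library, which 6.77% of all genes were. With the genotypes averaged, 5 of the 8 genes rose with traction, beside 9.73% of all genes called in either direction and 6.5% called higher. They were *Tnn* (log2 fold change 2.47, adjusted p = 0.0310), *Tnc* (2.07, adjusted p = 0.0374), *Thbs1* (1.81, adjusted p = 0.0236), *Thbs2* (1.19, adjusted p = 0.0459) and *Tgfbi* (1.05, adjusted p = 0.0328). The count was 0 without replicate 1 or 2 of Tem1WT/WT sham, replicate 2 or 3 of Tem1lacZ/lacZ sham, or replicate 2 or 3 of Tem1lacZ/lacZ traction, where 0% to 1.84% of all genes passed. It was 1 without replicate 1 of Tem1lacZ/lacZ sham (4.94% of all genes), 2 without replicate 3 of Tem1WT/WT sham (5.24%), 3 without replicate 3 of Tem1WT/WT traction (5.36%), and 3 with the replicate number as a block (7.91%). DESeq2 called 6 of the 8 (20.6% of all genes), adding *Sparc* (adjusted p = 0.0441). Limma-voom also called 6 (20.6% of all genes), again with *Sparc* (adjusted p = 0.0194).

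**Figure D2:**
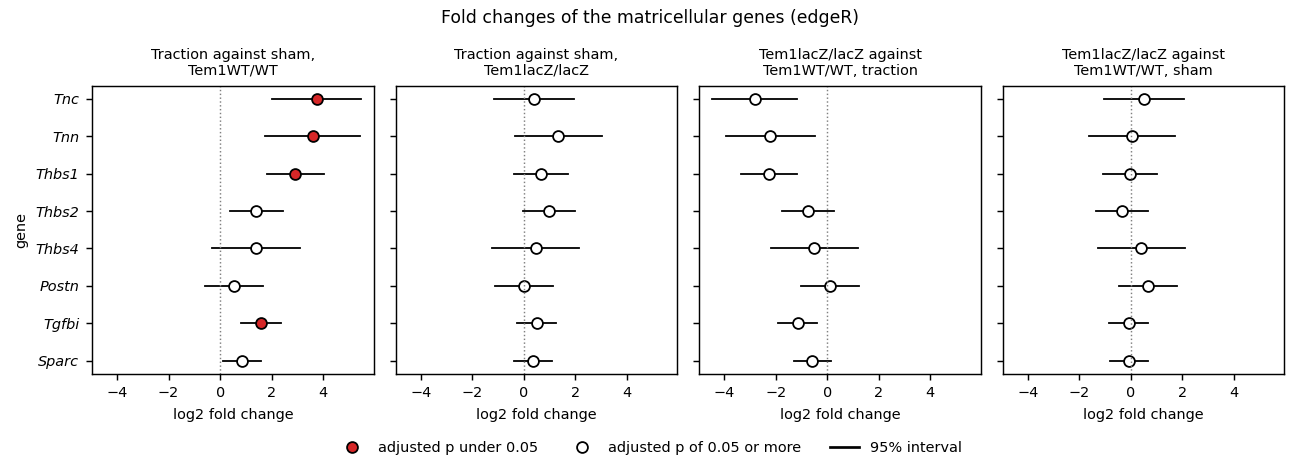
Log2 fold change (x axis) of each gene (y axis) in 4 comparisons, with 95% intervals from edgeR; filled points passed at adjusted p under 0.05. The 4 filled points, from 1.59 to 3.75, are all in the traction comparison of Tem1WT/WT mice, and the intervals of the sham comparison between genotypes all include 0.

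Between the genotypes, 7 of the 8 genes had lower estimates in Tem1lacZ/lacZ than in Tem1WT/WT mice with traction, but none passed the edgeR test, in which 0.106% of all genes passed. The lowest were *Tnc* with a log2 difference of -2.82 (SE 0.75, adjusted p = 0.0951), *Thbs1* with -2.26 (SE 0.50, adjusted p = 0.0845), *Tnn* with -2.21 (SE 0.79, adjusted p = 0.127) and *Tgfbi* with -1.15 (SE 0.35, adjusted p = 0.0990). These 4 had an unadjusted p under 0.05, as did 26.1% of all genes. For *Tnc*, *Thbs1* and *Tgfbi* every Tem1lacZ/lacZ traction library was below every Tem1WT/WT traction library, which held for 13.7% of all genes, whereas for *Tnn* the ranges overlapped at 155 and 232 CPM. *Postn* had a difference of 0.12 (SE 0.51, 95% interval -1.01 to 1.24), and *Thbs2*, *Sparc* and *Thbs4* had -0.76, -0.57 and -0.50.

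The same comparison changed with the test and with each library of the Tem1WT/WT traction group. DESeq2, which called 13.2% of all genes and 8.31% as lower, called *Tnc* (adjusted p = 0.00188), *Thbs1* (adjusted p = 0.000419), *Tgfbi* (adjusted p = 0.0219) and *Tnn* (adjusted p = 0.0252) as lower, and limma-voom called 0 of the 8 (0.0849% of all genes). Without replicate 2 of the Tem1WT/WT traction group, edgeR called 3 of the 8 and 7.32% of all genes, with log2 differences of -3.26 for *Tnc*, -2.52 for *Thbs1* and -1.38 for *Tgfbi*. With replicate 1 of that group left out it called 0 (0.0722% of all genes), and the differences were -1.71 for *Tnc*, -1.46 for *Thbs1*, -0.57 for *Tgfbi* and -2.65 for *Tnn*, while *Postn* turned to -0.24 and *Thbs4* to 0.45. Without replicate 3 it called 0 (0.129% of all genes), and the differences were -1.31 for *Tnn*, -0.18 for *Thbs2*, -0.22 for *Sparc* and 0.62 for *Postn*.

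In the sham groups the genotypes were not distinguished by any of the 8 genes. With edgeR 0 passed, 0 had an unadjusted p under 0.05 (11.7% of all genes) and 0.0106% of all genes passed. DESeq2 (0.307% of all genes) and limma-voom (0.0053%) also called 0 of the 8. Log2 differences ran from -0.33 for *Thbs2* to 0.67 for *Postn*, with a median of 0.00. The libraries of the genotypes overlapped for all 8 genes, whereas for 26.8% of all genes they did not overlap. The intervals still allowed sizeable differences, for example -1.64 to 1.70 for *Tnn* and -0.83 to 0.69 for *Tgfbi*.

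Whether traction acted differently in the genotypes was tested by the interaction term. All 8 estimates were negative, with a median of -0.998, but none passed and none of all genes passed (0%). The estimates were -3.35 (SE 1.02) for *Tnc*, -2.24 (SE 1.08) for *Tnn*, -2.24 (SE 0.68) for *Thbs1* and -1.08 (SE 0.49) for *Tgfbi*, with adjusted p between 0.548 and 0.564. *Tnc*, *Thbs1* and *Tgfbi* had an unadjusted p under 0.05, beside 8.91% of all genes. DESeq2 called 0 of the 8 (0.368% of all genes; adjusted p = 0.0821 for *Tnc*), and limma-voom called 0 of all genes (0%). The interaction, the traction comparison in Tem1WT/WT mice and the genotype comparison with traction share the 3 Tem1WT/WT traction libraries, so that their directions are not independent of each other. The interaction was -2.22 for *Tnc*, -1.42 for *Thbs1*, -0.48 for *Tgfbi* and 0.05 for *Thbs4* without replicate 1 of these libraries. Without replicate 3 it was -1.32 for *Tnn* and 0.17 for *Thbs2*.

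The 8 genes did not vary together between libraries of a group. Replicate 1 of the Tem1WT/WT traction group was the highest of the 12 libraries for *Tnc*, *Thbs1*, *Tgfbi* and *Thbs4*, and replicate 3 of the same group was the highest for *Postn*, *Tnn*, *Thbs2* and *Sparc*. Deviations from the group means over the 12 libraries had a Pearson's r of 0.70 to 0.96 (Spearman's rho 0.74 to 0.94) in the 6 pairs among *Postn*, *Tnn*, *Sparc* and *Thbs2*. They had an r of 0.38 to 0.69 (rho 0.28 to 0.68) in the 6 pairs among *Tnc*, *Thbs1*, *Thbs4* and *Tgfbi*, and 14 of the 16 pairs between these sets had a negative r. The sets were seen in the values and so carry no test, and the points share library size and tissue composition. Without the 3 Tem1WT/WT traction libraries the first set kept positive values in all pairs (r 0.37 to 0.93), the second ran from -0.29 to 0.41, and 8 of the 16 pairs between the sets were positive, so that the opposition of the sets rests on those libraries.

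**Figure D3:**
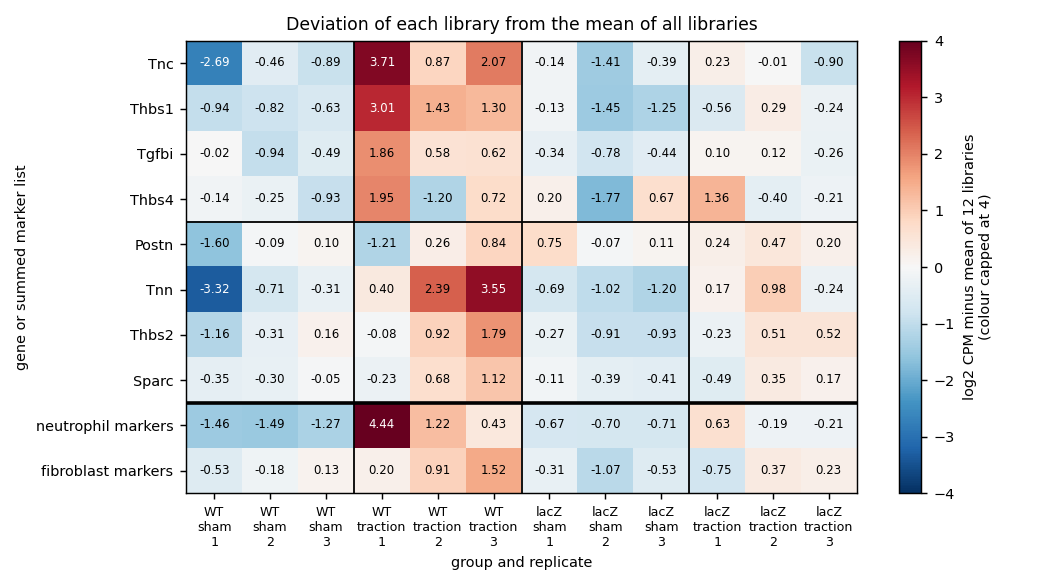
Log2 CPM of each gene in each library minus the mean of all 12 libraries, with the summed neutrophil and fibroblast markers in the lowest rows; colour is capped at 4. *Tnc* and *Thbs1* reach 3.71 and 3.01 in Tem1WT/WT traction replicate 1, where neutrophil markers reach 4.44, and *Tnn* reaches 3.55 in replicate 3, where fibroblast markers reach 1.52.

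**Figure D4:**
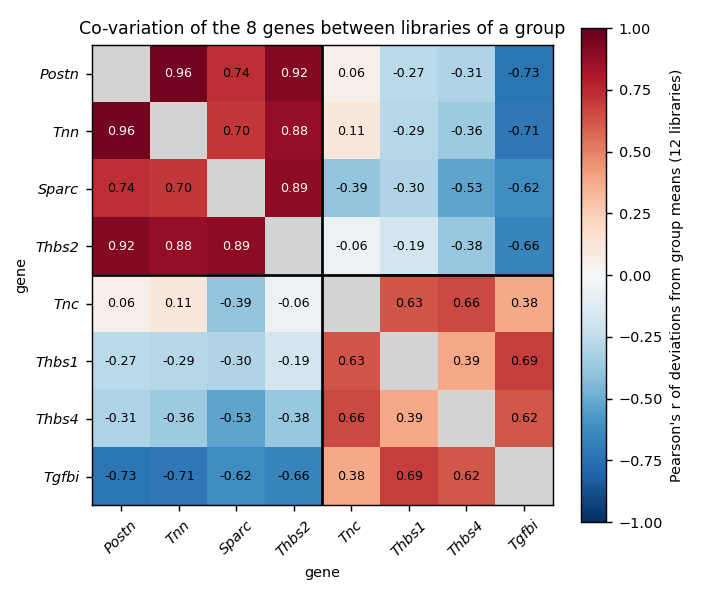
Pearson's r of the deviations from group means for each pair of genes over the 12 libraries. *Postn* and *Tnn* have the highest value (0.96) and *Postn* and *Tgfbi* the lowest (-0.73).

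Markers of other cell types moved in the same libraries. The summed level of 12 fibroblast markers was 44925, 73205 and 112229 CPM in replicates 1 to 3 of Tem1WT/WT traction, 27117 to 42751 CPM in Tem1WT/WT sham, 18615 to 31589 CPM in Tem1lacZ/lacZ sham and 23179 to 50542 CPM in Tem1lacZ/lacZ traction libraries. In the Tem1WT/WT traction comparison 5.61% of all genes passed as higher and 3.54% as lower. There 7 of 11 tested neutrophil markers, 6 of 10 endothelial markers and 2 of 12 fibroblast markers rose. So did 1 of 5 platelet and megakaryocyte markers and 1 of 10 Schwann cell and nerve markers. Of 9 hair follicle markers 2 fell, and of 10 keratinocyte markers 1 fell. None passed among 10 macrophage, 10 skeletal muscle, 9 tendon and cartilage and 10 adipocyte markers. All 10 skeletal muscle markers had an unadjusted p under 0.05 in edgeR, as did 31.4% of all genes. Their median log2 fold change was -2.91. Without replicate 1 of the Tem1WT/WT traction group (1.86% of all genes called), 3 neutrophil, 3 endothelial, 1 fibroblast and 1 Schwann cell and nerve marker rose, 3 skeletal muscle markers fell, and 0 markers of platelets and megakaryocytes, hair follicles, keratinocytes, macrophages, tendon and cartilage or adipocytes passed. The median of the neutrophil markers was 4.41 with this library and 2.21 without it, and that of the skeletal muscle markers was -4.14 without it. The part of these cells in the results for the 8 genes was not tested.

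Levels were compared between genes only as CPM per kb of merged exons. In Tem1WT/WT sham scars the order was *Sparc* (1173 ± 130.3, SD, n = 3), *Postn* (536 ± 272), *Thbs2* (145 ± 61.4), *Tgfbi* (62.0 ± 19.7), *Tnc* (35.0 ± 21.5), *Thbs1* (34.4 ± 3.81), *Thbs4* (14.5 ± 3.92) and *Tnn* (10.2 ± 7.37). Of the neighbours in this order, *Sparc* and *Postn*, *Postn* and *Thbs2*, and *Thbs1* and *Thbs4* did not overlap between libraries, and the others did. Both Tem1lacZ/lacZ groups had the same order. In Tem1WT/WT traction scars *Tnc* (470.2 ± 438) came after *Sparc* (2119 ± 914) and *Postn* (785 ± 470.0), and was followed by *Thbs2* (385 ± 232), *Thbs1* (262 ± 188), *Tgfbi* (186 ± 103), *Tnn* (123 ± 106) and *Thbs4* (37.9 ± 33.2). All neighbours in that order overlapped between libraries.

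Lists of related genes were read beside the 8. With traction in Tem1WT/WT scars, 5.61% of all genes passed as higher and 3.54% as lower. Of 23 tested other matricellular and related matrix genes, 6 rose in this comparison and 0 fell. They were *Spp1* (osteopontin, log2 fold change 3.44), *Wisp1* (2.06), *Cyr61* (1.78) and *Ctgf* (0.84) of the CCN family, *Ecm1* (1.38) and *Fbln1* (0.90). Of 22 receptors, 6 rose and 0 fell, among them the fibronectin receptor chain *Itga5* (2.05), the scavenger receptors *Lrp1* (1.45) and *Stab1* (1.37), the integrin chain *Itgb5* (1.05), the thrombospondin receptor *Cd47* (1.05) and *Calr* (0.70), which binds thrombospondin at the cell surface. The list medians were 0.34 and 0.66.

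In the same comparison, where 5.61% of all genes passed as higher, 6 of 16 collagens and collagen-modifying partners rose and 0 fell. They were *Col12a1* (2.91), a collagen on the surface of fibrils that binds tenascins, *Col5a1* (1.90) and *Col5a2* (1.30), the procollagen protease *Bmp1* (1.64), the crosslinking enzyme *Lox* (1.61) and the proteoglycan *Bgn* (1.45). This list had a median of 1.47. Of 18 TGF-β genes 4 rose and 0 fell, among them the latency protein *Ltbp2* (2.76), the ligand *Tgfb1* (1.68) and the co-receptor *Eng* (1.47), with a list median of 0.62. Without replicate 1 of the Tem1WT/WT traction group, where 1.86% of all genes passed, the counts of the lists were 3, 2, 4 and 2 in the same order.

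**Figure D5:**
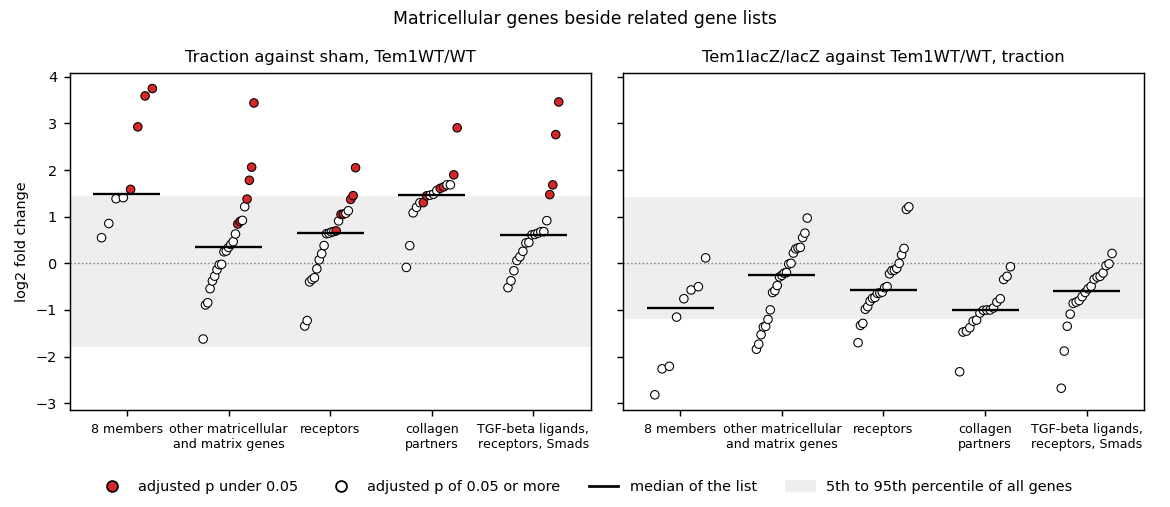
Log2 fold changes of the 8 genes and of the lists of related genes in the traction comparison of Tem1WT/WT mice and in the genotype comparison with traction; filled points passed at adjusted p under 0.05, lines are list medians and the band spans the 5th to 95th percentile of all genes. The medians of the 8 genes are 1.50 and -0.96, and those of the collagen partners 1.47 and -1.01.

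No gene of these lists passed with edgeR for traction in Tem1lacZ/lacZ mice, for the genotype in either treatment, or for the interaction. In the genotype comparison with traction, 7 of the 23 matricellular genes, 12 of the 22 receptors, 12 of the 16 collagen partners and 11 of the 18 TGF-β genes had an unadjusted p under 0.05, beside 26.1% of all genes. The values there were -1.35 for *Ecm1*, -1.20 for *Wisp1*, -1.70 for *Itga5*, -0.64 for *Itgb5*, -1.47 for *Col12a1*, -0.76 for *Bgn* and -0.83 for *Eng*. For traction in Tem1lacZ/lacZ mice *Col12a1* had 1.34, *Eng* 1.22, *Bgn* 0.71, *Itgb5* 0.57, *Wisp1* 0.54, *Itga5* 0.38 and *Ecm1* 0.08. With the genotypes averaged, 5 matricellular genes, 6 receptors, 10 collagen partners and 6 TGF-β genes rose and 0 fell. Of all genes, 6.5% passed as higher there and 3.23% as lower. *Col1a1* (1.56), *Fmod* (1.39), *Col1a2* (1.34), *Col6a2* (1.23), *Tgfb3* (0.91), *Itga9* (0.86) and *Tgfbr3* (0.66) passed in this comparison and not in Tem1WT/WT mice alone.

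The genes whose log2 CPM was most like each of the 8 over the 12 libraries were ranked by Pearson's r among 13638 genes, as a description of libraries that share depth and tissue composition. *Sparc* was nearest to *Mmp23* (0.98), *Fkbp9* (0.98) and *Pcolce* (0.98), and *Thbs2* to *Megf6* (0.98), *Palld* (0.98) and *Mecom* (0.98). The nearest to *Tnn* were *Slc30a5* (0.97), *Cbfb* (0.97) and *Mcam* (0.97), and to *Postn* they were *Itm2a* (0.93), *Cthrc1* (0.92) and *Mirg* (0.92). *Tnc* was most like *Ing1* (0.96), *Calr* (0.96) and *Ppp4r1* (0.96), and *Thbs1* was most like *Runx1* (0.98), *Ppp1r3d* (0.98) and *Sbno2* (0.97). *Tgfbi* came closest to *Sh2d3c* (0.95), *Dennd3* (0.95) and *A4galt* (0.95), and *Thbs4*, with the weakest likeness, to *Rap1gap* (0.82), *Tnnc1* (0.81) and *Trex1* (0.80). No gene was among the nearest 3 of more than 1 of the 8.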

How the data were processed

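RNA from a part of each scar was prepared as stranded mRNA libraries by the authors. Per the submitters' processing notes, reads were trimmed with fastp 0.20.0, aligned to GRCm38 with HISAT2 2.1.0 and counted with featureCounts 2.0.0. The authors deposited whole-number counts per gene and library without normalization. The annotation and strand setting are not given in the sources used here. The study's methods state 3 mouse scars per group. Where scars shared an animal or batch is not stated, so p-values measure the spread between these libraries.

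Counts were filtered with filterByExpr, normalized by TMM and fitted in a single robust quasi-likelihood model of the 4 groups with edgeR 4.0.16 in R 4.3.3 (8 residual degrees of freedom). The p-values are two-sided and were adjusted by Benjamini-Hochberg over 18853 genes, with calls under 0.05. DESeq2 1.42.0 and limma-voom (limma 3.58.1), other normalizations, filters and left-out libraries were alternatives. The scripts were tested on simulated data. Exon lengths came from GENCODE vM21 and promoters from RefSeq. Figures used Python 3.11.15 with matplotlib 3.10.9.

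Members and lists were chosen with earlier results of these data known. The genes named were the 8 members, *Cd248*, the 3 genes most like each member (mean log2 CPM of at least 1, prior count 2), and of each list the called genes or, where none was called, the 2 with the smallest p for traction in Tem1WT/WT mice. Values of some listed genes are not reported here. *Ly6g* and the genes overlapping members were named with their values known. The fibroblast markers share *Col1a1*, *Col1a2*, *Col3a1* and *Dcn* with the collagen partners. No pair of libraries was a copy of another.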

Additional observations from a re-analysis of the deposited data

How the results depend on the processing

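All 8 genes kept a positive sign for traction in Tem1WT/WT mice under every alternative run. The number of them called there, 4, was 0 with only the libraries of the groups compared and 0 at an adjusted p under 0.01, and ranged from 0 to 4 when single libraries were left out. The count for traction averaged over both genotypes, 5, was 6 with DESeq2 and 6 with limma-voom. It was 2 with all genes of at least 1 count, 3 with the replicate block and 0 at an adjusted p under 0.01. When single libraries were left out, it ranged from 0 to 6. The count for the genotype with traction, 0, was 4 with DESeq2 and ranged from 0 to 3 when single libraries were left out. The counts for traction in Tem1lacZ/lacZ mice, for the genotype in sham and for the interaction stayed at 0. The causes were not tested.

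Same-numbered libraries came from mice of different genotype or treatment, so the numbers were not taken as pairs. The 18 same-numbered pairs had correlations of deviations from -0.32 to 0.25, of which 8 were over 0.1. Differently numbered pairs ran from -0.40 to 0.37. The only ones over 0.1 were Tem1lacZ/lacZ sham 1 with traction 3 (0.37) and sham 2 with traction 1 (0.34). Whether libraries of the same number share a structure was not tested. The replicate block moved no count other than the averaged one by over 1.5 times. Upper quartile normalization gave a median of all genes of -0.12 for traction in Tem1WT/WT mice and 0.14 for the genotype with traction, beside -0.01 and 0.01 with TMM.

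Reversals concerned values that passed no test. *Postn* for traction in Tem1lacZ/lacZ mice was 0.0058 with DESeq2 and with its size factors, 0.0289 with all genes of at least 1 count and 0.0836 with limma-voom. With limma-voom *Thbs4* was 0.0473 for the genotype with traction and -0.19 for traction in Tem1lacZ/lacZ mice, and *Tgfbi* was 0.0645 for the genotype in sham. *Thbs1* for the genotype in sham was 0.0204 with upper quartile normalization, and *Tnn* was -0.0021 with all genes of at least 1 count. When single libraries were left out, the genotype in sham ranged from -0.20 to 0.0363 for *Sparc*, -0.25 to 0.19 for *Tgfbi*, -0.58 to 0.20 for *Thbs1*, -0.61 to 0.0040 for *Thbs2*, -0.0813 to 0.84 for *Thbs4* and -0.45 to 0.53 for *Tnn*. The genotype with traction ranged from -0.24 to 0.62 for *Postn* and -1.26 to 0.45 for *Thbs4*, traction in Tem1lacZ/lacZ mice from -0.13 to 0.32 for *Postn* and -0.27 to 0.97 for *Thbs4*, and the interaction from -0.76 to 0.17 for *Thbs2* and -1.66 to 0.0545 for *Thbs4*.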
